A study of Mus musculus with 24 samples.

Results

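Transcript levels of 6 alarmin and lymphoid cytokine genes were followed across the 24 RNA-seq libraries of 3T3 mouse embryonic fibroblasts (MEFs), namely *Il33*, *Il1rl1*, *Tslp*, *Il18*, *Il7* and *Il15*. The 6 genes, of 55471 in the deposited count tables, were chosen from their measured levels over the 8 groups, so those levels and the differences between groups are given as a description without a p-value. All 6 passed the filter on low counts that left 17522 genes for testing.

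The libraries came from 4 genotypes, each untreated or given IL-1β at 0.1 ng/mL for 6 hours, with 3 libraries in each of the 8 groups. Wild-type (WT) MEFs were compared with an Lkb1-/- line, which lacks the kinase LKB1 (gene *Stk11*), and with clones A1 and A2, which were made from Lkb1-/- MEFs by CRISPR-Cas9 with guides to the first exon of *Crtc2* and carry both deletions. CRTC2 is a coactivator of the transcription factor CREB. Clones A1 and A2 were each expanded from a single cell, and wild-type and Lkb1-/- MEFs are separate lines, so that a genotype and the history of its line or clone cannot be told apart. The labels do not say whether the 3 libraries of a group came from separate cultures, and a p-value then measures only the spread between libraries.

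IL-33, TSLP and IL-18 are called alarmins, cytokines that barrier and stromal cells make or store and release on damage, and that act on mast cells, innate lymphoid cells and T cells. IL-33 binds ST2, the protein of *Il1rl1*, together with the coreceptor encoded by *Il1rap*, and *Il1rl1* also gives a secreted form of ST2 that captures IL-33. IL-18 is made as an inactive precursor that caspase-1 cleaves. IL-7 and IL-15 are stromal survival cytokines of lymphocytes, known from the lymph node and bone marrow, and both signal through the common γ chain. Transcript counts bear on none of the steps of cleavage, storage or release.

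Depth was alike in all groups, from 38842901 to 48594394 counts on genes per library with a median of 42431965, and levels are given as CPM (counts of a gene scaled to the library total, with TMM), where a level under 0.1 CPM rests on a few read pairs. The first library of each group stood apart from the other two. Its counts differed from theirs with a chi-square per degree of freedom of 37.7 to 106, against 7.41 to 18.6 between the other two, and it had the largest share of pairs on no gene in all 8 groups (29.9% to 34.4%, against 26.7% to 30.0% in the other libraries). Values without all 8 first libraries, a choice made after seeing the data, are given for some of the results that changed. *Stk11* averaged 84.7 to 86.0 CPM in wild-type groups and 16.8 to 22.5 CPM in the other 6 groups. *Crtc2* averaged 58.4 and 64.7 CPM in wild-type MEFs, 81.1 and 82.7 CPM in Lkb1-/- MEFs and 42.9 to 53.0 CPM in the clones. Both genes kept reads where they were deleted. Of the 9 fibroblast markers 7 were tested, and in untreated Lkb1-/- against wild-type MEFs 3 rose and 3 fell (edgeR, FDR under 0.05). Those that rose were *Pdgfra* (4.58 to 342 CPM on average), *Pdgfrb* (50.4 to 93.7 CPM) and *Dcn* (0.411 to 218 CPM). Those that fell were *Col1a1* (2378 to 1485 CPM), *Col1a2* (780.1 to 63.02 CPM) and *Vim* (3208 to 2462 CPM). Their summed level ran from 5110 to 7580 CPM in wild-type and from 3930 to 7233 CPM in all other libraries. *Thy1* was at 0 in all 6 wild-type libraries and at no more than 0.0623 CPM elsewhere, and *Pdgfra* was at 3.71 to 6.09 CPM in wild-type libraries against 208 to 605 CPM in all others. The summed level of the 6 immune markers ran from 0.0261 to 0.181 CPM in wild-type libraries and from 1.12 to 2.44 CPM in all others, most of it *Csf1r*. The 4 mast cell markers summed to no more than 0.0261 CPM, with *Cpa3*, *Fcer1a* and *Tpsb2* at 0 throughout. Endothelial markers summed to between 0.469 and 0.750 CPM in wild-type libraries and between 2.17 and 3.98 CPM elsewhere, mainly *Kdr*, and epithelial markers to at most 0.447 CPM. These marker levels moved with the line, and their part in the results for the 6 genes was not tested. In bulk RNA, fewer cells of a type and less RNA per cell cannot be told apart.

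*Il33* lies on chromosome 19 (GRCm38, 29925114 to 29960718, plus strand) and *Il1rl1* on chromosome 1 (40429570 to 40465415, plus strand). Both genes have more than 1 start site in RefSeq. The RefSeq windows from 250 bases before to 50 after each start are shown because the levels of these genes moved together over the libraries, with a Pearson r of 0.83 across 24 libraries that share groups (a description). Capitals mark TGACG, the core of the cAMP response element (CRE) that CREB binds.
*Il33*, chr19:29924863-29925162: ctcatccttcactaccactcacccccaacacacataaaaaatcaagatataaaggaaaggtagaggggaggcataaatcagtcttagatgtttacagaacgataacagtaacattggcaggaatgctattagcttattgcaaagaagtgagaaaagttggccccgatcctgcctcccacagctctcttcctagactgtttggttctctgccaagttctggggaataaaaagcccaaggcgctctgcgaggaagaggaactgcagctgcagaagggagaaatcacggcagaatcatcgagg
*Il33*, chr19:29945540-29945839: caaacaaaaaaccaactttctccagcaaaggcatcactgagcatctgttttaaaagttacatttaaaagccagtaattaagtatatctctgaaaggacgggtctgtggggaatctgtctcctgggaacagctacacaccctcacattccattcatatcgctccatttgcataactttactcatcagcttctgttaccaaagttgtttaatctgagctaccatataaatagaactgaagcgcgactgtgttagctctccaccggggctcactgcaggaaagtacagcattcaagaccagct
*Il1rl1*, chr1:40429320-40429619: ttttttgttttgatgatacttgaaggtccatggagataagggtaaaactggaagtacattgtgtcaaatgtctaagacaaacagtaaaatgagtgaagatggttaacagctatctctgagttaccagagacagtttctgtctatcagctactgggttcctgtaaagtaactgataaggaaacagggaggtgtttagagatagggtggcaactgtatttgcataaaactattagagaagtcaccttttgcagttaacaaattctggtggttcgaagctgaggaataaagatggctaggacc
*Il1rl1*, chr1:40439379-40439678: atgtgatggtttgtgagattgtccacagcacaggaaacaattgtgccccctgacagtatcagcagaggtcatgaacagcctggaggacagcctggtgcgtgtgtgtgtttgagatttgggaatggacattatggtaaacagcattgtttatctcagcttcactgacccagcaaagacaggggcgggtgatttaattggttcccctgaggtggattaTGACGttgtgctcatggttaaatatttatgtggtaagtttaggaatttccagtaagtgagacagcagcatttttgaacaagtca
TGACG was found, with both strands searched, in 1 of these 4 windows and not in the window of *Il18*. That match, in the second *Il1rl1* window, lies 34 to 30 bases before the start site. Of all 32851 promoter windows of the same length, 20.8% hold TGACG. The full CRE (TGACGTCA, in 1.79% of windows, of which the core is a part), the AP-1 motif (TGANTCA, 7.81%) and the NF-κB consensus (8.46%) had no match in the 5 windows. Windows of *Il7*, *Il15* and *Tslp* were not used here.

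*Il33*, whose product is a nuclear alarmin, was found in Lkb1-/- MEFs and clone A1 and was at or near 0 in wild-type MEFs and clone A2. Untreated wild-type libraries held 0, 1 and 0 *Il33* read pairs and IL-1β-treated ones 2, 0 and 4. Untreated Lkb1-/- libraries held 22, 6 and 11 (0.498, 0.139 and 0.262 CPM), and after IL-1β 73, 46 and 64 (1.75, 0.956 and 1.54 CPM). None of the 6 Lkb1-/- libraries overlapped the wild-type libraries of the same treatment. Clone A1 held 7, 11 and 18 pairs untreated (0.171, 0.264 and 0.414 CPM) and 22, 28 and 23 after IL-1β (0.540, 0.645 and 0.574 CPM). Clone A2 held 1, 2 and 1 pairs untreated and 2, 2 and 1 after IL-1β. The clones thus stood apart, with A1 at the Lkb1-/- level when untreated and A2 near the wild-type level.

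Because groups with a few pairs give no stable fitted fold, *Il33* is compared there by summed counts, with an exact 95% interval that covers counting error only. The Lkb1-/- to wild-type ratio was 38.2 (6.46 to 1546) untreated and 28.3 (12.8 to 78.1) with IL-1β. Clone A2 had 0.0959 times the Lkb1-/- level untreated (0.0249 to 0.266) and 0.0270 times with IL-1β (0.00865 to 0.0641). Single libraries moved 3 of these 4 ratios by more than 1.5 times, and the treated ratio of clone A2 stayed between 0.0228 and 0.0311. The untreated Lkb1-/- to wild-type ratio was 24.7 without the first wild-type library and 25.3 without the first Lkb1-/- library, and had no value without the second wild-type library, which held the single pair. With IL-1β it was 18.4 without the second and 58.0 without the third wild-type library. The untreated ratio of clone A2 was 0.145 without the first Lkb1-/- library. Without the first libraries of all groups, the untreated ratios were 16.3 for Lkb1-/- to wild-type MEFs and 0.169 for clone A2 to Lkb1-/- MEFs. In clone A1 the fitted log2 difference from Lkb1-/- was -0.08 ± 0.48 (SE) untreated, with overlapping libraries, and -1.26 ± 0.40 with IL-1β, where all A1 libraries were lower. Without the first untreated Lkb1-/- library the untreated difference was 0.52, and without all first libraries 0.76.

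*Il1rl1*, the ST2 receptor gene, was the most abundant of the 6, also per length. Its group means ran from 16.3 to 212 CPM per kb of exon, against 0.132 to 15.1 for *Il18*, 0.0786 to 2.71 for *Il7*, 0.0844 to 2.31 for *Tslp*, 0.103 to 0.483 for *Il15* and 0.00266 to 0.490 for *Il33*. Untreated wild-type libraries held 250, 221 and 197 CPM of *Il1rl1*, and IL-1β-treated ones 497, 486 and 441 CPM. The level in untreated Lkb1-/- libraries was 746, 615 and 667 CPM, and 1502, 1368 and 1517 CPM after IL-1β. In all 4 genotypes every treated library was above every untreated library. Clone A1 held 942, 656 and 711 CPM untreated and 1555, 1215 and 1279 CPM with IL-1β, overlapping Lkb1-/- MEFs in both states. Clone A2 held 159, 85.2 and 93.1 CPM untreated and 448, 314 and 385 CPM with IL-1β. Untreated clone A2 was thus under untreated wild-type MEFs, and its treated level overlapped that of treated wild-type MEFs.

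The log2 difference of *Il1rl1* between Lkb1-/- and wild-type MEFs was 1.60 ± 0.19 untreated and 1.62 ± 0.19 with IL-1β, about 3.03-fold and 3.08-fold. Clone A2 was lower than Lkb1-/- MEFs by 2.59 ± 0.19 and 1.94 ± 0.19 on the log2 scale, and clone A1 differed by 0.19 ± 0.18 and -0.12 ± 0.18. The counts are per gene and do not separate secreted from membrane ST2 among the 5 annotated transcripts.

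**Figure D1:**
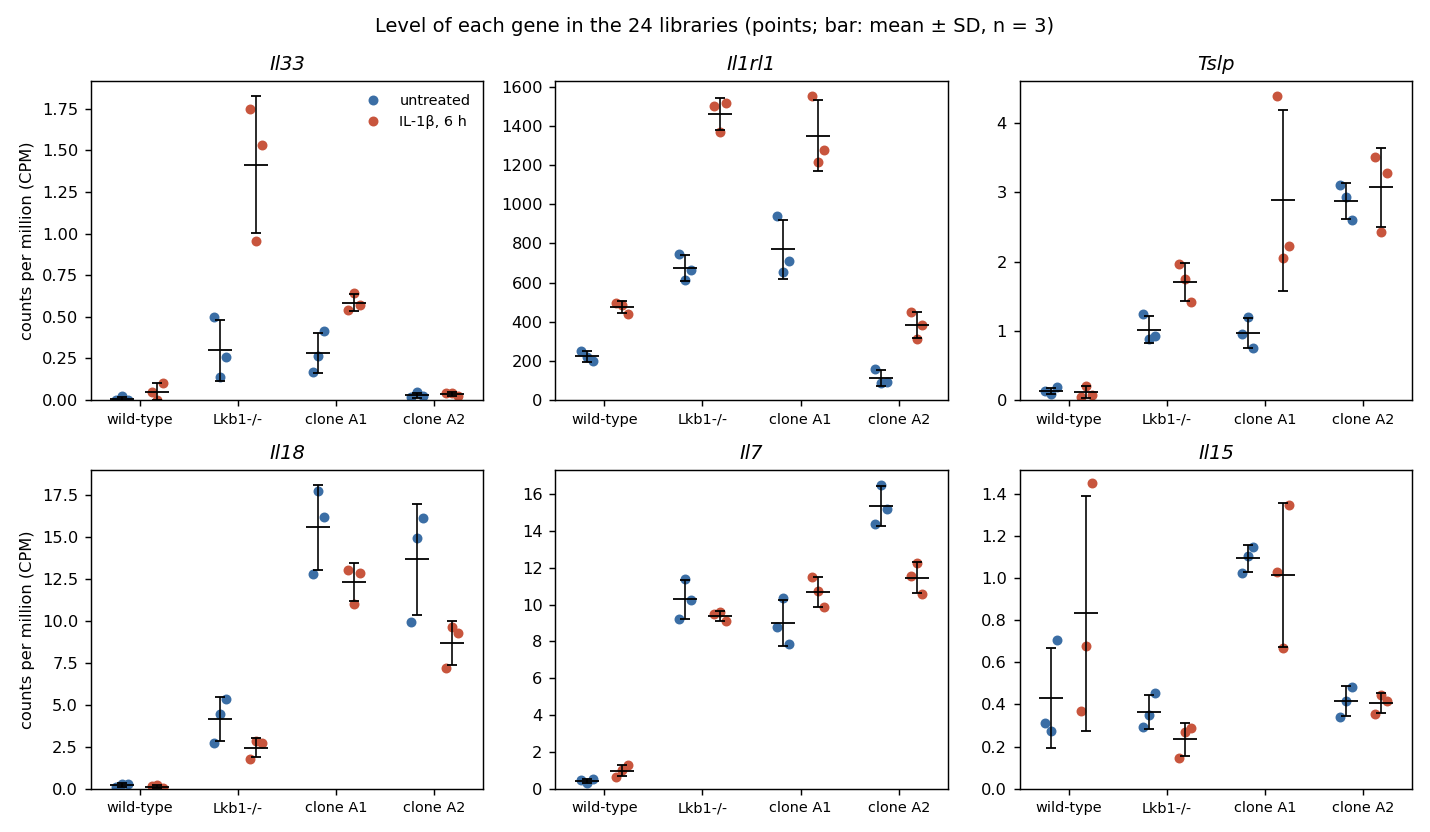
Level of *Il33*, *Il1rl1*, *Tslp*, *Il18*, *Il7* and *Il15* in CPM (y axes, linear, from 0) in each of the 24 libraries, by genotype on the x axes, with untreated libraries in blue and IL-1β-treated ones in red; black bars give the mean and SD of 3 libraries. *Il33* and *Il1rl1* are low in clone A2 and high in clone A1, *Tslp*, *Il18* and *Il7* are near 0 in wild-type MEFs and present in the other genotypes, and *Il15* is highest on average in clone A1.

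*Tslp* (chromosome 18, 32815383 to 32819797, plus strand), whose product drives type 2 responses through dendritic cells, was close to absent in wild-type MEFs. Its wild-type levels were 0.134, 0.0921 and 0.183 CPM untreated and 0.0494, 0.210 and 0.0776 CPM with IL-1β, or 2 to 9 read pairs per library. Lkb1-/- libraries held 1.25, 0.882 and 0.928 CPM untreated and 1.97, 1.75 and 1.42 CPM after IL-1β. Every Lkb1-/- library was above every wild-type library. The log2 difference was 2.89 ± 0.40 untreated and 3.87 ± 0.40 with IL-1β, and the latter was 4.70 without the second treated wild-type library.

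*Tslp* was above the wild-type level in every library of both clones. Clone A1 held 0.951, 1.20 and 0.758 CPM untreated, and 4.39, 2.05 and 2.22 CPM with IL-1β. Clone A2 held 3.10, 2.94 and 2.60 CPM untreated and 3.51, 2.42 and 3.28 CPM with IL-1β. Untreated clone A1 overlapped Lkb1-/- MEFs and all other clone groups were above them. Against Lkb1-/- MEFs, the log2 difference of *Tslp* was -0.07 ± 0.31 (A1) and 1.496 ± 0.30 (A2) untreated, and 0.75 ± 0.29 (A1) and 0.84 ± 0.28 (A2) with IL-1β. One treated A1 library, the first, was high, and without it the A1 difference was 0.32.

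*Il18* (chromosome 9, 50554827 to 50581840, plus strand) had a stepwise order, lowest in wild-type MEFs, higher in Lkb1-/- MEFs and highest in the clones. Wild-type libraries held 0.0893, 0.299 and 0.287 CPM untreated and 0.173, 0.210 and 0.0259 CPM with IL-1β. Lkb1-/- libraries held 2.72, 4.43 and 5.33 CPM untreated and 1.80, 2.83 and 2.73 CPM with IL-1β. The genotypes did not overlap in either state. Clone A1 held 12.8, 17.7 and 16.2 CPM untreated and 13.05, 11.004 and 12.8 CPM with IL-1β. Clone A2 held 9.91, 14.9 and 16.1 CPM untreated and 7.17, 9.62 and 9.26 CPM with IL-1β. All 12 clone libraries were thus above all 6 Lkb1-/- libraries.

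The log2 difference of *Il18* between Lkb1-/- and wild-type MEFs was 4.21 ± 0.38 untreated, about 18.5-fold, and 4.12 ± 0.42 with IL-1β. Against Lkb1-/- MEFs, clone A1 was higher by 1.90 ± 0.26 untreated and 2.32 ± 0.27 with IL-1β, and clone A2 by 1.71 ± 0.26 and 1.82 ± 0.27. *Il33* and *Il18*, both IL-1 family alarmins, therefore lay on opposite sides of Lkb1-/- MEFs in clone A2.

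*Il7* (chromosome 3, 7569994 to 7613760, minus strand), the survival factor of naive T cells and lymphoid progenitors, was low in wild-type MEFs and many times higher in the other lines. Wild-type libraries held 0.491, 0.322 and 0.522 CPM untreated and 0.666, 1.00 and 1.29 CPM with IL-1β. Lkb1-/- libraries held 9.24, 11.4 and 10.3 CPM untreated and 9.50, 9.60 and 9.09 CPM with IL-1β. Wild-type treated libraries were all above wild-type untreated ones, and those of Lkb1-/- MEFs overlapped. Clone A1 held 8.78, 10.3 and 7.88 CPM untreated and 11.5, 10.8 and 9.86 CPM with IL-1β. Clone A2 held 14.3, 16.5 and 15.2 CPM untreated and 11.6, 12.2 and 10.6 CPM with IL-1β. Clone A1 overlapped untreated Lkb1-/- MEFs, and clone A2 was above Lkb1-/- MEFs in both states.

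The log2 difference of *Il7* between Lkb1-/- and wild-type MEFs was 4.53 ± 0.19 untreated, about 23.1-fold, and 3.25 ± 0.17 with IL-1β, about 9.51-fold. With unstranded counts the untreated value was 4.21. Against Lkb1-/- MEFs, clone A1 differed by -0.19 ± 0.14 untreated and 0.19 ± 0.14 with IL-1β, where the libraries did not overlap, and clone A2 by 0.58 ± 0.14 and 0.29 ± 0.14.

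The product of *Il15* (chromosome 8, 82331632 to 82403222, minus strand) sustains natural killer and memory CD8 T cells. Its transcript level followed that of no other member (Pearson r of -0.08 to 0.15). Wild-type libraries held 0.313, 0.276 and 0.704 CPM untreated and 0.370, 0.677 and 1.45 CPM with IL-1β. Lkb1-/- libraries held 0.294, 0.348 and 0.452 CPM untreated and 0.144, 0.270 and 0.288 CPM with IL-1β. The genotypes overlapped when untreated, and all treated Lkb1-/- libraries were lower than all treated wild-type ones. Clone A1 held 1.02, 1.10 and 1.15 CPM untreated and 1.03, 0.668 and 1.35 CPM with IL-1β, above every Lkb1-/- library. Clone A2 held 0.342, 0.417 and 0.484 CPM untreated and 0.353, 0.446 and 0.416 CPM with IL-1β. The log2 difference between Lkb1-/- and wild-type MEFs was -0.22 ± 0.44 untreated and -1.80 ± 0.44 with IL-1β, and the latter was -1.19 without the third treated wild-type library, which was the highest. Clone A1 was higher than Lkb1-/- MEFs by 1.58 ± 0.41 untreated and 2.09 ± 0.43 with IL-1β, and clone A2 differed by 0.18 ± 0.44 and 0.78 ± 0.46.

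**Figure D2:**
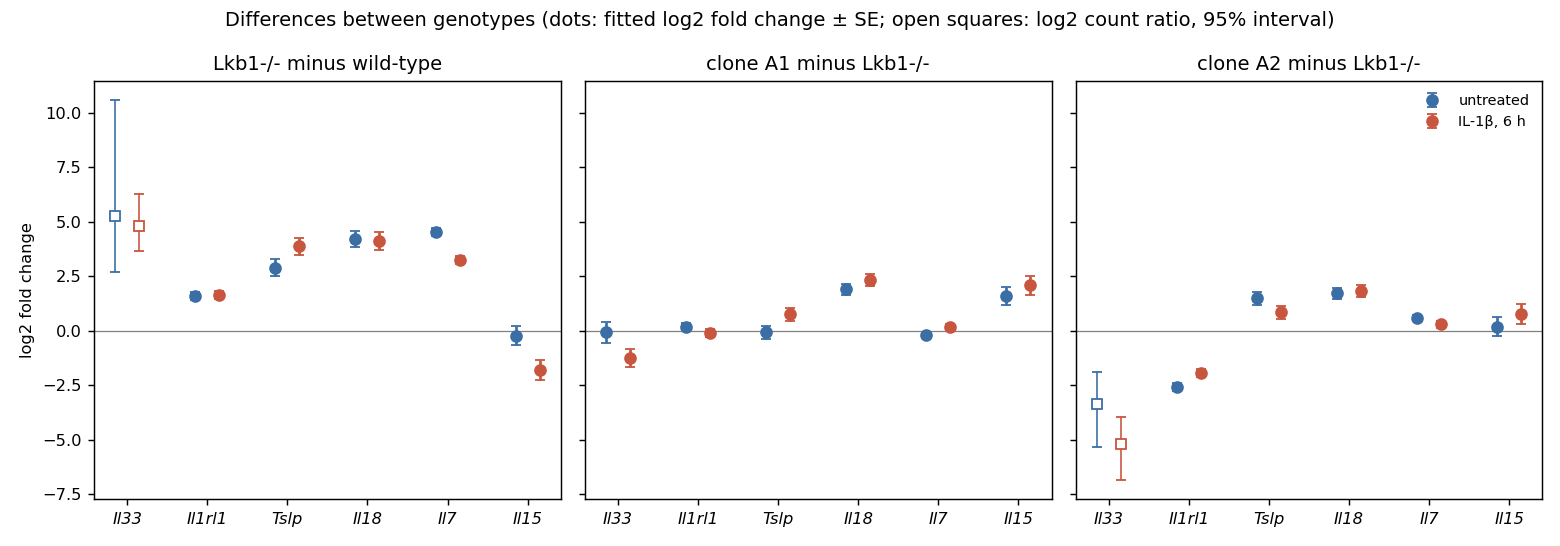
Log2 fold change (y axis) of the 6 genes for Lkb1-/- minus wild-type MEFs, clone A1 minus Lkb1-/- and clone A2 minus Lkb1-/-, untreated in blue and with IL-1β in red; dots show the edgeR fit ± SE over 3 libraries per group, and open squares the log2 ratio of summed *Il33* counts with its 95% counting interval. *Il18* lies above 0 in all 3 panels, and *Il33* and *Il1rl1* lie under 0 in clone A2.

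Counted against all genes, 5 members were past an FDR of 0.05 (edgeR quasi-likelihood test) as higher in untreated Lkb1-/- MEFs and 0 as lower, where 30.1% and 25.8% of genes tested were. With IL-1β the counts were 5 higher and 1 lower, against 30.2% and 27.1%. For clone A1 minus Lkb1-/- MEFs they were 2 and 0 untreated (18.9% and 16.4% of all genes) and 3 and 1 with IL-1β (19.4% and 17.3%), and 2 and 0 without the first treated A1 or the third treated Lkb1-/- library or without all first libraries. For clone A2 they were 3 and 2 untreated (17.1% and 15.1%) and 2 and 2 with IL-1β (17.1% and 15.8%), the latter 3 and 2 with the replicate number as a block or in DESeq2, which added *Il7*, and 1 and 2 in 4 of 6 fits that left out a library (the first or the third treated A2, the second or the third treated Lkb1-/-), where *Tslp* was lost. Since the rule used these levels, nothing is read from these counts. The comparisons of Lkb1-/- MEFs with wild-type and with each clone share the Lkb1-/- libraries.

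In order of group mean, treated Lkb1-/- MEFs came first for *Il33* and *Il1rl1*. The treated and untreated clone A2 groups ranked first for *Tslp* and *Il7* respectively, and untreated clone A1 for *Il18* and *Il15*. Neighbours in the order whose libraries overlapped were common. For *Il33* these were untreated Lkb1-/- and untreated A1, and all pairs of neighbours among the last 4 groups (both wild-type and both A2 groups). For *Il1rl1* they were treated Lkb1-/- and treated A1, the untreated groups of the same lines, and treated wild-type and treated A2. For *Tslp* the top 3 groups overlapped in turn, as did untreated Lkb1-/- with untreated A1 and the wild-type pair. For *Il18* the top 3 groups, the Lkb1-/- pair and the wild-type pair overlapped. For *Il7* the groups ranked 2 to 6 overlapped in turn, and both wild-type groups stood apart at the bottom. For *Il15* every pair of neighbours overlapped except the last, untreated and treated Lkb1-/- MEFs.

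Across the 24 libraries, *Tslp*, *Il18* and *Il7* formed a group with Pearson r of 0.88 (*Tslp* and *Il18*), 0.92 (*Tslp* and *Il7*) and 0.90 (*Il18* and *Il7*) on the log2 CPM scale. *Il15* had r of -0.08 to 0.15 with the other 5. The libraries fall into 8 groups of 4 genotypes, so these values mostly describe genotype means. By the same measure, the genes closest to each member were *Il3ra* (r = 0.92), *Epc1* and *Ssx2ip* for *Il33*, *Mtf1* (0.94), *Magoh* and *Pabpc1* for *Il1rl1*, and *4933431E20Rik* (0.96), *Mbd4* and *P3h3* for *Tslp*. For *Il18* they were *B3galt1* (0.99), *Ncaph2* and *Epha7*, for *Il7* *Plcd1* (0.99), *Irf5* and *Zfp870*, and for *Il15* *Pml* (0.86), *Usp19* and *Ogfr*.

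IL-1β, a cytokine that signals through its own receptor with the coreceptor of *Il1rap*, was followed by a higher *Il1rl1* level in every genotype. The log2 difference of *Il1rl1* between treated and untreated libraries was 1.09 ± 0.19 in wild-type, 1.11 ± 0.18 in Lkb1-/- MEFs, 0.81 ± 0.18 in clone A1 and 1.77 ± 0.19 in clone A2. These were about 2.13-fold, 2.16-fold, 1.75-fold and 3.40-fold. The response of clone A2 minus that of Lkb1-/- MEFs was 0.65 ± 0.26 for *Il1rl1*, and 1.00 without the first untreated A2 library, which was the highest of its group.

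*Il33* was higher after IL-1β by 2.22 ± 0.43 in Lkb1-/- MEFs, about 4.66-fold, and by 1.04 ± 0.45 in clone A1, and in both lines the treated libraries were all above the untreated ones. Without the first untreated Lkb1-/- library the former value was 2.82. In wild-type MEFs and clone A2 the counts were too few to show a difference, with count ratios of 6.22 (0.755 to 286) and 1.30 (0.279 to 6.54). *Tslp* was higher after IL-1β by 0.74 ± 0.30 in Lkb1-/- MEFs and 1.57 ± 0.30 in clone A1, the latter 1.14 without the first treated A1 library. In wild-type MEFs and clone A2 the treated and untreated *Tslp* libraries overlapped.

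*Il18* was lower after IL-1β on average in all 4 genotypes, with -0.76 ± 0.27 in Lkb1-/- MEFs and -0.65 ± 0.25 in clone A2. Only in clone A2 did treated and untreated *Il18* libraries not overlap. *Il7* differed by 1.15 ± 0.22 in wild-type MEFs, -0.13 ± 0.14 in Lkb1-/- MEFs, 0.25 ± 0.14 in clone A1 and -0.42 ± 0.14 in clone A2. *Il15* differed by 0.96 ± 0.41 in wild-type MEFs, with overlap (0.28 without the third treated library), and by -0.63 ± 0.47 in Lkb1-/- MEFs, without overlap. The latter rests on 13, 15 and 19 read pairs untreated and 6, 13 and 12 treated. Its count ratio was 0.648, with an interval of counting error (0.398 to 1.04) that spans no difference.

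**Figure D3:**
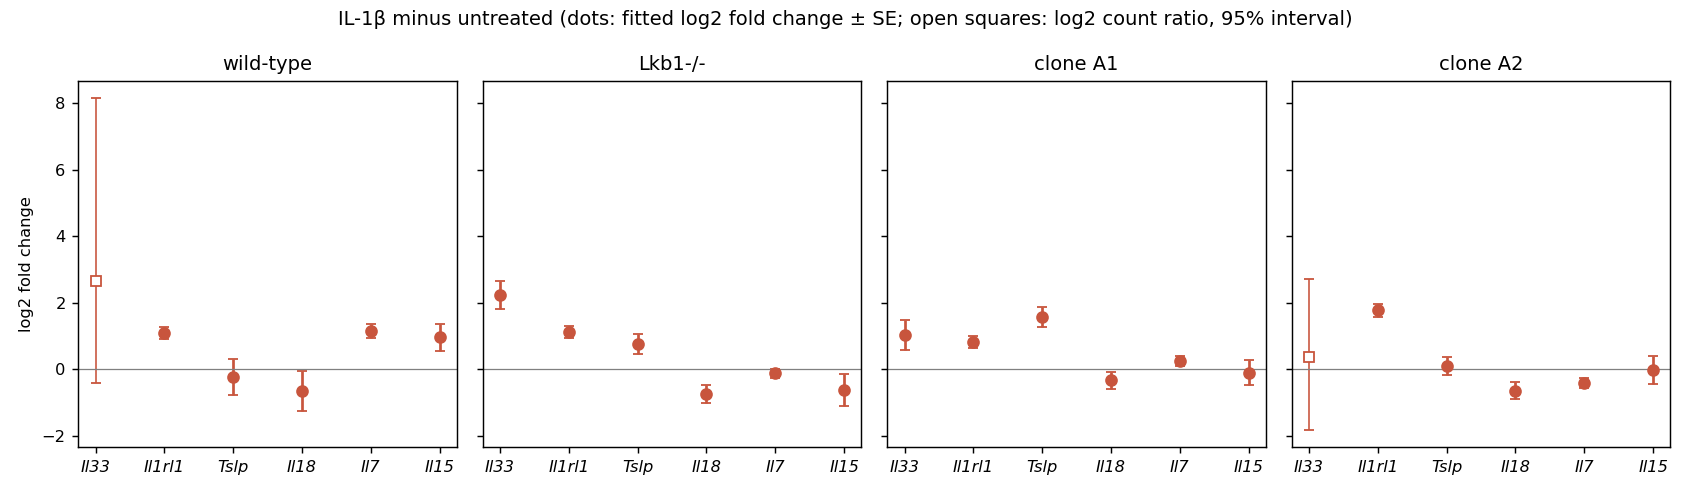
Log2 fold change (y axis) of the 6 genes between IL-1β-treated and untreated libraries in each of the 4 genotypes (panels); dots show the edgeR fit ± SE with 3 libraries per group, and open squares the log2 ratio of summed *Il33* counts with its 95% counting interval. *Il1rl1* lies above 0 in all 4 panels, and the squares of wild-type MEFs and clone A2 span 0.

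By edgeR at an FDR of 0.05, the members higher after IL-1β were *Il1rl1* and *Il7* in wild-type MEFs (1.53% of genes tested were higher and 0.731% lower), *Il33* and *Il1rl1* in Lkb1-/- MEFs (2.65% and 2.09%), *Il1rl1* and *Tslp* in clone A1 (1.2% and 0.788%) and *Il1rl1* in clone A2 (2.81% and 2.86%), and 0 were lower. In a fit blocked on the replicate number, 4 members were past the threshold in Lkb1-/- MEFs, with *Tslp* added as higher and *Il18* as lower, and 3 in clone A2, with *Il18* and *Il7* added as lower. The block raised the counts over all genes from 396 to 1629, 831 to 2601, 348 to 1684 and 995 to 3133 in the same order of genotypes. In clone A1, *Tslp* alone was past the threshold when any of 4 libraries was left out (the first and the third treated, the second and the third untreated). Without the second untreated wild-type library, *Il1rl1* alone was past it in wild-type MEFs, and without the first untreated A2 library *Il18* was added as lower in clone A2. In Lkb1-/- MEFs, *Il18* was added as lower without the first untreated library, without the filter on low counts and in DESeq2. Without all first libraries the genes called were 921, 1534, 899 and 2556, and *Il18* was added as lower in Lkb1-/- MEFs, and *Il18* and *Il7* as lower in clone A2. As the members were picked from these groups, the counts are given as a description.

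For the difference between responses, *Il7* was the single member past the threshold, a description since the members were picked from these groups. Its response was lower by 1.28 ± 0.26 (log2) in Lkb1-/- than in wild-type MEFs, where 0.137% of genes tested had a higher and 0.108% a lower response. Leaving out a library ended this call for 11 of the 12 libraries, while without all 8 first libraries it was past the threshold, at -1.66, where 147 genes were called in place of 43. No member was past it for clone A1 minus Lkb1-/- (0% and 0.0285%) or clone A2 minus Lkb1-/- (0% and 0%). For clone A2, edgeR's quasi-likelihood test called 0 of all genes tested, with 388 at an unadjusted p under 0.05 and 12 called by DESeq2.

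Over *Il7*, reads on the opposite strand were also more frequent after IL-1β in every genotype. Wild-type libraries held 5, 3 and 4 such read pairs untreated and 6, 14 and 6 treated, and Lkb1-/- libraries 19, 23 and 16 untreated and 81, 78 and 45 treated. Clone A1 held 12, 18 and 15 untreated and 67, 55 and 43 treated, and clone A2 30, 29 and 14 untreated and 105, 114 and 85 treated. The annotated antisense gene *Gm16685* (plus strand, 7612705 to 7690001) overlaps the start of *Il7*. Its own counts, looked up after the *Il7* values were seen and given without a test, averaged 0.0248 CPM in untreated and 0.624 CPM in treated wild-type MEFs, and 0.510 and 7.43 CPM in Lkb1-/- MEFs. In clone A1 it averaged 1.01 and 8.03 CPM, and in clone A2 1.34 and 12.1 CPM. The treated and untreated libraries of *Gm16685* did not overlap in any genotype, and *Il7* itself moved upward after IL-1β without overlap in wild-type MEFs only.

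**Figure D4:**
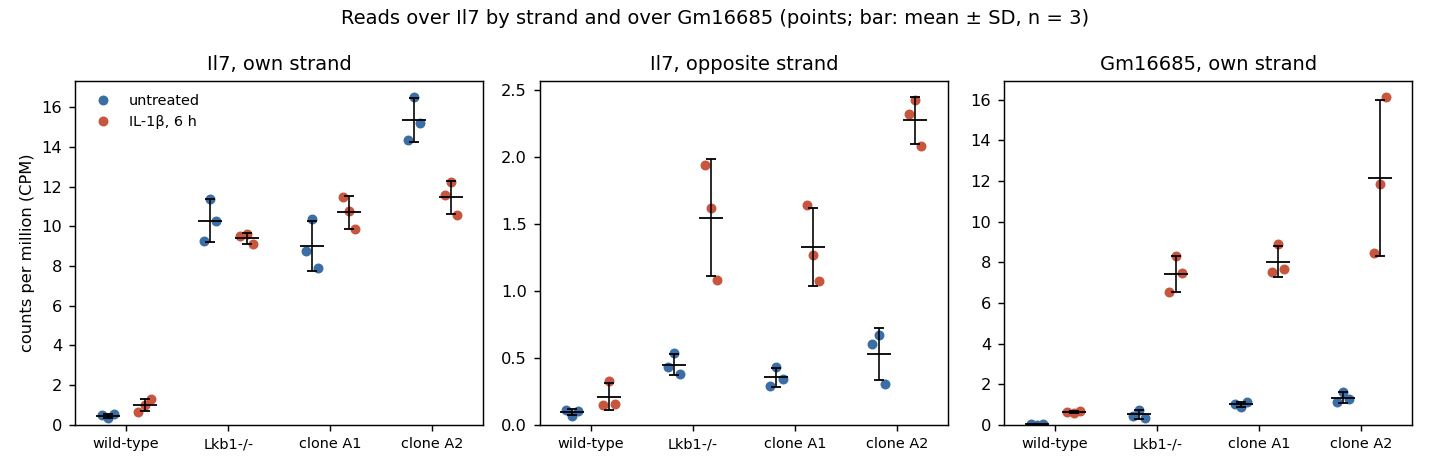
CPM (y axes, linear, from 0) of read pairs on the *Il7* strand, on the strand opposite to *Il7*, and on the antisense gene *Gm16685*, for each of the 24 libraries by genotype (x axes), untreated in blue and IL-1β-treated in red, with mean and SD of 3 libraries. Treated libraries lie above untreated ones for the opposite strand and for *Gm16685* in each genotype, and for *Il7* itself in wild-type MEFs only.

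Genes that receive or process these cytokines, related ligands and genes known from lymphoid stroma were put in 6 lists. The lists were written from textbook roles but with earlier results of these data known, so adjusted p-values of their genes are no independent support. They hold 44 genes in all, of which 29 were tested. In untreated Lkb1-/- against wild-type MEFs, 10 of these rose and 8 fell, and with IL-1β 10 rose and 9 fell (edgeR, FDR under 0.05). Between clone A1 and Lkb1-/- MEFs 4 rose and 8 fell untreated, and between clone A2 and Lkb1-/- MEFs 8 rose and 9 fell. With IL-1β those counts were 4 and 7 for A1 and 8 and 9 for A2. Over all genes tested, 30.1% rose and 25.8% fell between untreated Lkb1-/- and wild-type MEFs (30.2% and 27.1% with IL-1β), 18.9% and 16.4% between untreated clone A1 and Lkb1-/- MEFs (19.4% and 17.3% with IL-1β), and 17.1% and 15.1% between untreated clone A2 and Lkb1-/- MEFs (17.1% and 15.8% with IL-1β). The listed genes were set beside these shares without a test, and nothing is read from their counts as a property of the lists.

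*Il1rap*, the coreceptor shared by IL-33 and IL-1, was well expressed in all groups and rose by 0.45 ± 0.11 (log2) in untreated Lkb1-/- MEFs, from 62.8 to 85.5 CPM on average (edgeR, adjusted p = 0.00154). Of the 7 genes of the IL-33 receptor list, 1 rose and 2 fell in that comparison (*Traf6* and *Sigirr*, an adaptor and an inhibitor of IL-1 family signalling), with a list median log2 difference of -0.17 against 0.04 over all genes tested. Untreated, *Sigirr* fell by 1.73 ± 0.70 on 8 to 12 read pairs in wild-type libraries (edgeR, adjusted p = 0.0415), and leaving out a library ended this call for 5 of the 6 libraries, as did upper quartile scaling (edgeR, adjusted p = 0.053) and leaving out all first libraries (edgeR, adjusted p = 0.15). With IL-1β, wild-type libraries held 2, 1 and 10 pairs and Lkb1-/- libraries 4, 5 and 3, with a difference of -0.23 ± 0.76 (edgeR, adjusted p = 0.815). *Sigirr* held 31, 14 and 24 read pairs in untreated clone A2 against 3, 3 and 3 in untreated Lkb1-/- MEFs, a rise of 2.78 ± 0.65 (edgeR, adjusted p = 0.00221). The treated rise in clone A2 was 1.76 ± 0.64 (edgeR, adjusted p = 0.0406), a call lost in 5 of 6 fits that left out a library and without all first libraries (edgeR, adjusted p = 0.24). IL-1β raised *Il1rap* in Lkb1-/- MEFs (0.48 ± 0.11; edgeR, adjusted p = 0.00995) and clone A2 (0.48 ± 0.11; edgeR, adjusted p = 0.0093), where the call was lost without the second untreated A2 library (edgeR, adjusted p = 0.05) and in the fit of only the groups compared (edgeR, adjusted p = 0.23). The values in wild-type MEFs and clone A1 were 0.38 ± 0.11 and 0.29 ± 0.11.

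Of the TSLP receptor, the specific chain *Crlf2* was present at 2.52 to 5.65 CPM in all libraries, while the partner chain *Il7r* had at most 7 read pairs in a library and was not tested. *Crlf2* fell by 0.49 ± 0.11 in untreated clone A2 against Lkb1-/- MEFs (edgeR, adjusted p = 0.00162), a call lost without the filter on low counts (edgeR, adjusted p = 0.058). Over the list of 6 genes, of which 5 were tested, *Stat5a* rose and *Jak1* and *Stat5b* fell in untreated Lkb1-/- MEFs, with a median of -0.22. The call of *Stat5a* was lost without the first wild-type library (edgeR, adjusted p = 0.069) or the third Lkb1-/- library (edgeR, adjusted p = 0.085), and that of *Jak1* without the second wild-type library (edgeR, adjusted p = 0.069). *Stat5b*, a transcription factor that carries the signal of TSLP, IL-7 and IL-15, fell by 1.19 ± 0.16 (edgeR, adjusted p = 1.69e-06). *Jak2*, the kinase used by the TSLP receptor, fell by 0.92 ± 0.16 in untreated clone A1 (edgeR, adjusted p = 0.000122) and by 1.11 ± 0.16 in treated clone A1 (edgeR, adjusted p = 1.37e-05).

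The IL-18 list of 9 genes held 5 tested ones, and 2 rose and 2 fell in untreated Lkb1-/- MEFs, with a median of 0.45. *Casp1*, which cleaves the IL-18 precursor, had 0 read pairs in all wild-type and clone libraries and 0 to 4 in Lkb1-/- libraries, and *Nlrp3*, *Nlrp1b* and *Pycard* were also not tested. *Casp4*, a caspase of the noncanonical inflammasome, held 9.15, 11.4 and 14.6 CPM in untreated wild-type libraries and 0.385, 0.557 and 0.881 CPM in Lkb1-/- ones, a fall of 4.27 ± 0.27 (edgeR, adjusted p = 2.16e-11). It fell further in untreated clone A1, by 3.04 ± 0.48 (edgeR, adjusted p = 4.22e-05), and clone A2, by 3.01 ± 0.47 (edgeR, adjusted p = 4.47e-05). *Gsdmd*, the pore-forming protein that caspases cut, had 0 read pairs in untreated wild-type libraries and 4.505, 5.36 and 5.52 CPM in Lkb1-/- ones, at least 71.8-fold higher against a floor of 3 counts per library (edgeR, adjusted p = 3.48e-14). *Gsdmd* was higher again in untreated clone A1 by 0.91 ± 0.14 (edgeR, adjusted p = 5.42e-05) and in clone A2 by 1.81 ± 0.14 (edgeR, adjusted p = 2.52e-08). Mean *Casp4* was thus highest, and mean *Il18* and *Gsdmd* lowest, in wild-type MEFs.

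Both chains of the IL-18 receptor lie next to *Il1rl1* on chromosome 1, *Il18r1* at 40465552 to 40500854 and *Il18rap* at 40515362 to 40551705, on the same strand. *Il18r1* held 2, 0 and 0 read pairs in untreated wild-type, 18, 14 and 17 in Lkb1-/-, 4, 11 and 12 in clone A1 and 8, 4 and 0 in clone A2 libraries. Its ratio of summed counts between Lkb1-/- and wild-type MEFs was 23.99 (6.30 to 204; edgeR, adjusted p = 0.000173) and rests on the 2 pairs of the first wild-type library. In treated libraries, with 6, 2 and 5 pairs in wild-type and 22, 16 and 24 in Lkb1-/- MEFs, the log2 difference was 2.12 ± 0.61 (edgeR, adjusted p = 0.00512). Against Lkb1-/- MEFs it fell by 2.10 ± 0.63 in untreated clone A2 (edgeR, adjusted p = 0.0136), or by 1.51 without the third A2 library (edgeR, adjusted p = 0.06) and by 2.97 without the first. Without all first libraries that log2 difference was -2.93. In treated clone A2, with 8, 15 and 12 pairs, the difference was -0.85 ± 0.53 (edgeR, adjusted p = 0.241). *Il18rap* went the other way between the lines, from 16.8, 15.3 and 16.1 CPM in untreated wild-type to 6.93, 6.26 and 7.57 CPM in Lkb1-/- libraries, a fall of 1.22 ± 0.18 (edgeR, adjusted p = 4.97e-06). In clone A2 it was lower again, at 3.99, 2.15 and 2.42 CPM, by 1.27 ± 0.19 (edgeR, adjusted p = 2.57e-05), and in clone A1 it was at 5.90, 6.89 and 6.59 CPM, with a difference of -0.10 ± 0.18. The IL-18 binding protein *Il18bp*, the secreted inhibitor, lay between 2.43 and 6.92 CPM in all libraries and passed the test in no comparison fitted over all 24 libraries without a block. For Lkb1-/- against wild-type MEFs it passed in the fit blocked on the replicate number in both states, and untreated also in the fit of only the groups compared and without all first libraries.

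**Figure D5:**
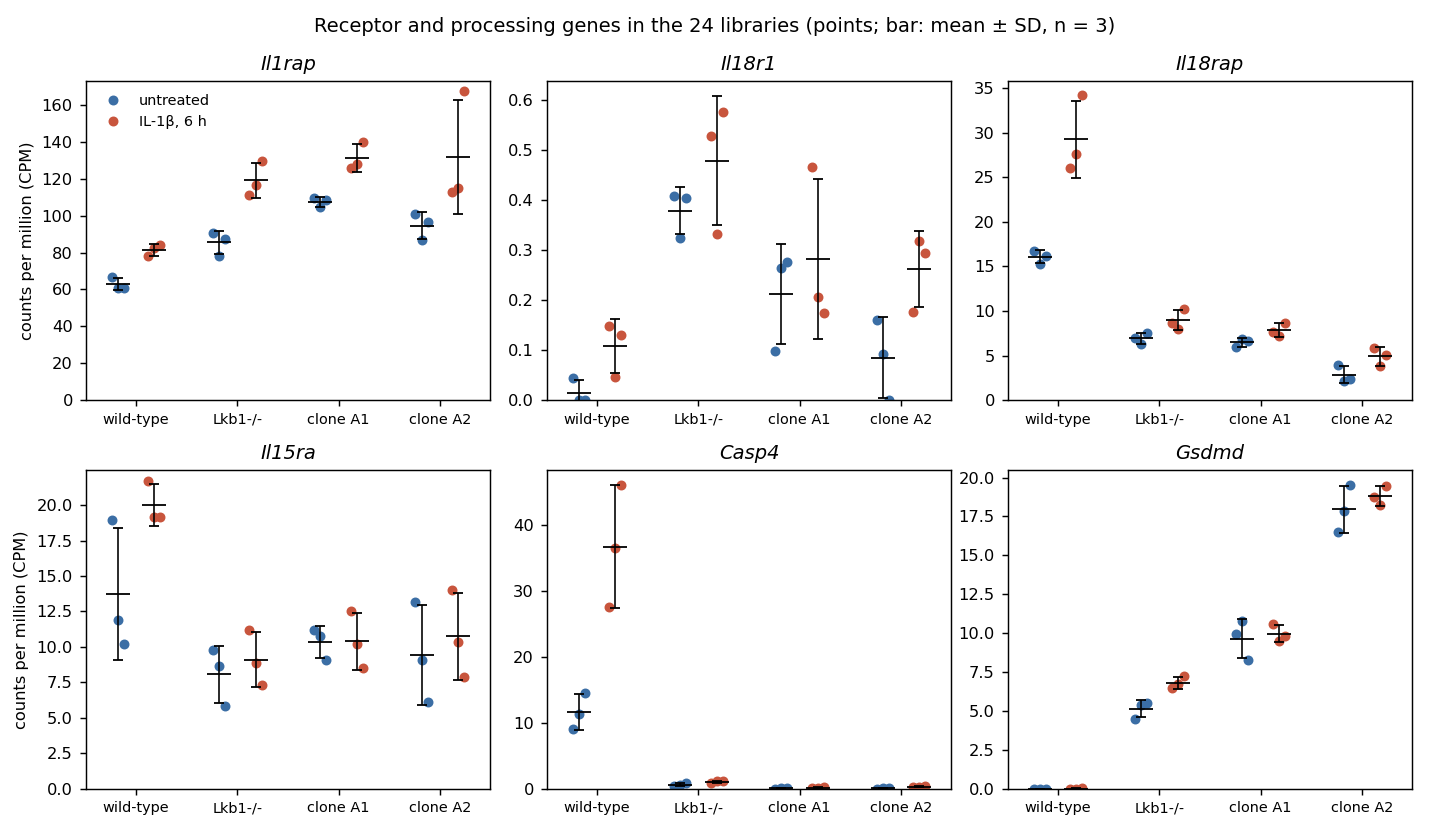
CPM (y axes, linear, from 0) of *Il1rap*, *Il18r1*, *Il18rap*, *Il15ra*, *Casp4* and *Gsdmd* in each of the 24 libraries by genotype (x axes), untreated in blue and IL-1β-treated in red, with mean and SD of 3 libraries. *Casp4* and *Il18rap* are highest in treated wild-type MEFs, at means of 36.8 and 29.2 CPM, and *Gsdmd* is highest in clone A2.

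Among the receptors of IL-7 and IL-15, *Il15ra*, which presents IL-15 to neighbouring cells, fell by 0.77 ± 0.27 in untreated Lkb1-/- MEFs (edgeR, adjusted p = 0.0195) and by 1.13 ± 0.27 with IL-1β (edgeR, adjusted p = 0.00103). It averaged 13.7 and 20.01 CPM in wild-type and 8.07 and 9.11 CPM in Lkb1-/- groups. The untreated call was lost without the first wild-type library (edgeR, adjusted p = 0.18), without the third Lkb1-/- library (edgeR, adjusted p = 0.088) and with upper quartile scaling (edgeR, adjusted p = 0.056). The signalling chains *Il2rg* and *Il2rb* of lymphocytes were at or under 1.81 CPM in every library. *Il2rb* rose by count ratio 28.4 (10.8 to 106) in untreated Lkb1-/- MEFs (edgeR, adjusted p = 2.1e-06), from 1, 1 and 2 read pairs to 0.702, 0.789 and 1.21 CPM, and fell by 1.43 ± 0.45 in untreated clone A1 (edgeR, adjusted p = 0.0159), a call lost without the first A1 library (edgeR, adjusted p = 0.063) or the third Lkb1-/- library (edgeR, adjusted p = 0.085). *Il2rg* rose by 2.55 ± 0.69 in untreated clone A2 (edgeR, adjusted p = 0.00649), from 0, 3 and 4 to 19, 21 and 6 read pairs, and by 3.19 without the third Lkb1-/- library. Without all first libraries it was 1.86 and the call was lost (edgeR, adjusted p = 0.066). *Jak3*, the kinase bound to the common γ chain, fell by 1.46 ± 0.13 in untreated clone A1 against Lkb1-/- MEFs (edgeR, adjusted p = 3.43e-08). Of the 8 genes of this list 7 were tested, and 3 rose and 3 fell in untreated Lkb1-/- MEFs, with a median of -0.36.

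Other genes known from lymphoid stroma gave 3 rises and 1 fall among 6 tested of 10 listed in untreated Lkb1-/- MEFs, with a median of 2.95. Of 8 related ligands 2 were tested and 1 rose, the IL-1 receptor antagonist *Il1rn*, by 5.27 ± 0.77 (edgeR, adjusted p = 4.75e-06). The other, *Il1a*, held no read pairs in untreated libraries, so nothing is read from the list median of 2.64. The rise of *Il1rn* was 6.68 without the first and 4.69 without the second untreated wild-type library, and 6.89 without all first libraries. *Tnfsf11* (RANKL) had 0 read pairs in all wild-type libraries and averaged 52.2 CPM in untreated Lkb1-/- MEFs, at least 731-fold higher against a floor of 3 counts per library (edgeR, adjusted p = 5.32e-11). The chemokine *Cxcl12* rose by 5.29 ± 0.33 (edgeR, adjusted p = 1.69e-11), and *Kitl*, the stem cell factor, fell by 1.14 ± 0.22 (edgeR, adjusted p = 0.000145). Podoplanin (*Pdpn*), a marker of lymph node reticular cells, held 93, 71 and 105 read pairs in untreated Lkb1-/- libraries against 0, 1 and 0 in wild-type ones, a count ratio of 263 (46.9 to 10440; edgeR, adjusted p = 8.46e-10) that rests on the 1 pair of the second wild-type library. In untreated clones A1 and A2, *Tnfsf11* fell by 2.98 ± 0.30 (edgeR, adjusted p = 1.01e-06) and 2.78 ± 0.30 (edgeR, adjusted p = 2.46e-06) and *Pdpn* fell by 5.16 ± 0.47 (edgeR, adjusted p = 4.38e-08) and 4.67 ± 0.43 (edgeR, adjusted p = 8.14e-08), whereas *Cxcl12* rose by 1.73 ± 0.26 (edgeR, adjusted p = 2.04e-05) and 1.11 ± 0.25 (edgeR, adjusted p = 0.00192) and *Kitl* by 1.06 ± 0.22 (edgeR, adjusted p = 0.000693) and 1.21 ± 0.22 (edgeR, adjusted p = 0.000236). In the clones, *Tnfsf11* and *Pdpn* thus fell while *Cxcl12* and *Kitl* rose. From the *Pdpn* read pairs given above, falls of this size leave only a few pairs per clone library, so the size of its fitted folds is uncertain.

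After IL-1β, 3 listed genes rose and 0 fell in wild-type MEFs, 5 rose and 1 fell in Lkb1-/- MEFs, 1 rose in clone A1, and 7 rose and 1 fell in clone A2. Of all genes tested, 1.53% rose and 0.731% fell in wild-type MEFs, 2.65% and 2.09% in Lkb1-/- MEFs, 1.2% and 0.788% in clone A1 and 2.81% and 2.86% in clone A2. In the fit blocked on the replicate number these totals of 3, 6, 1 and 8 became 8, 11, 5 and 9. Without all first libraries they were 4, 8, 3 and 11, and *Jak3* and *Kitl* were then called lower in clone A1. *Casp4* rose by 1.65 ± 0.22 (edgeR, adjusted p = 7e-05) and *Il18rap* by 0.86 ± 0.17 (edgeR, adjusted p = 0.00565) in wild-type MEFs. *Il1a*, another IL-1 family cytokine, had 0 read pairs in all 12 untreated libraries, and 13, 11 and 8 in treated wild-type, 15, 18 and 16 in treated Lkb1-/-, 1, 0 and 2 in treated A1 and 1, 6 and 12 in treated A2 libraries. *Il1rn* rose by 2.01 ± 0.47 in Lkb1-/- MEFs (edgeR, adjusted p = 0.0128) and by 2.92 ± 0.50 in clone A2 (edgeR, adjusted p = 0.000708). *Tnfsf11* rose in Lkb1-/- MEFs, clone A1 and clone A2, by 1.26 ± 0.28 (edgeR, adjusted p = 0.0107), 1.83 ± 0.30 (edgeR, adjusted p = 0.002) and 2.82 ± 0.30 (edgeR, adjusted p = 1.14e-05). *Pdpn* rose by 1.71 ± 0.30 in Lkb1-/- MEFs (edgeR, adjusted p = 0.000953) and by 3.01 ± 0.47 in clone A2 (edgeR, adjusted p = 0.000241), and *Jak3* fell by 0.52 ± 0.13 (edgeR, adjusted p = 0.0158) and 0.49 ± 0.13 (edgeR, adjusted p = 0.0239). In clone A2, *Casp4* rose by 2.21 ± 0.51 (edgeR, adjusted p = 0.0102) and *Il18rap* by 0.78 ± 0.19 (edgeR, adjusted p = 0.0148). Leaving out 1 library ended some of these calls, those of *Jak3* in 4 of 6 fits in Lkb1-/- MEFs and 5 of 6 in clone A2, and that of *Il18rap* in 3 of 6 in clone A2. In clone A2 the call of *Il1a* was lost without the second or the third untreated or the third treated library (edgeR, adjusted p = 0.071, 0.073 and 0.071) and with unstranded counts, where the log2 difference was 2.08 (edgeR, adjusted p = 0.14). The fit of only the groups compared ended the calls of *Casp4* (edgeR, adjusted p = 0.079), *Il18rap* (edgeR, adjusted p = 0.34) and *Jak3* (edgeR, adjusted p = 0.089) in clone A2, and the newer quasi-likelihood method that of *Casp4* (edgeR, adjusted p = 0.096). In Lkb1-/- MEFs the calls of *Il1rap*, *Il1rn* and *Tnfsf11* were lost without the second untreated library (edgeR, adjusted p = 0.076, 0.058 and 0.057), and that of *Il1rn* also without the first. In wild-type MEFs, that of *Il18rap* was lost without the third treated library (edgeR, adjusted p = 0.056) and that of *Il1a* without the second untreated one (edgeR, adjusted p = 0.065). No listed gene passed the test for a difference between responses, and with the block 1 did, *Casp4* in Lkb1-/- against wild-type MEFs. In that comparison *Jak2* passed without all first libraries, and *Kitl* without the filter on low counts. Without the filter, *Tnfsf11* passed for clone A1 and *Tnfsf11* and *Il1rn* for clone A2, each against Lkb1-/- MEFs.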

How the data were processed

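RNA was sequenced from 24 libraries of 3T3 MEFs, with 3 libraries in each of 8 groups taken from the labels. Per the labels and the study's methods, the authors trimmed paired reads with Trim Galore 0.6.0 and aligned them to the mouse genome GRCm38 (mm10) with STAR 2.7.8a, and the deposited values are counts of read pairs per gene, not normalized. The library kit differs between the labels and the methods and is left unnamed. The second-strand counts were used, since 95.5% to 96.0% of stranded pairs lay there. Lines that name no gene held 26.7% to 34.4% of pairs and stayed out of library sizes. Of 55471 Ensembl genes, 55144 had a symbol in GENCODE vM21. Reads shared with genes on the opposite strand are kept apart by the strand.

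Counts were fitted in edgeR 4.0.16 (R 4.3.3) with TMM scaling (factors 0.922 to 1.09), filterByExpr by group (minimum count 10, minimum total 15), 1 coefficient per group over all 24 libraries and the quasi-likelihood test, with Benjamini-Hochberg adjustment over 17522 genes and a threshold of 0.05. A total of 13 comparisons were made. The SE of a log2 fold change is its size over the root of F. The common biological coefficient of variation was 0.129. Intervals of count ratios are exact at 95% and cover counting error only, and a fold against libraries at 0 uses a floor of 3 counts per library. The scripts were tested on simulated libraries drawn independently of each other. These held no shift of the first library and no pattern shared by replicate number, so the test does not cover those features. Promoter sequences are from RefSeq (GRCm38.p6).

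The 6 genes and the gene lists were chosen with earlier results of these data known. The text names all members, the receptor genes *Il1rap*, *Crlf2*, *Il7r*, *Il2rg*, *Il2rb*, *Il15ra*, *Il18r1* and *Il18rap*, *Il18bp*, other listed genes called with an absolute log2 fold change above 1 between genotypes or called after IL-1β, and the 3 genes most alike in pattern to each member by Pearson r among genes with a mean log2 CPM above 1. *Casp1*, *Nlrp3*, *Nlrp1b*, *Pycard*, *Traf6*, *Stat5a*, *Jak1* and *Gm16685* fall outside that rule and were named after their values were seen.

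Groups share replicate numbers. Deviations of same-numbered libraries from their group means correlated at 0.0355 to 0.589 over 84 pairs. In 9 of the 13 comparisons, among them the 4 IL-1β responses, every pair was over 0.1. In the other 4 the lowest were 0.0355 and 0.056. The first library stood apart in all 8 groups, so the replicate number marks a pattern that the groups share, and the labels do not say what it stands for. Alternatives were unstranded counts, DESeq2 size factors, upper quartile scaling, no filter, the newer quasi-likelihood method, the replicate number as a block, fits of only the groups compared, DESeq2 1.42.0 and leaving out each library in turn, and, added after seeing the data, leaving out the first library of every group.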

Additional observations from a re-analysis of the deposited data

Results flagged for a closer look

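The IL-1β response of *Il7* in Lkb1-/- minus that in wild-type MEFs was -1.28 on the log2 scale, a description, since *Il7* was chosen from these levels. It was past the threshold with all 24 libraries and without the first library of every group, and not past it in 11 of the 12 fits that left out a library, with unstranded counts, with the newer quasi-likelihood method or in the fit of only the groups compared. *Il7* was also higher in all treated wild-type libraries, by 1.15, and lower in all treated libraries of clone A2, by -0.42, and that difference between wild-type MEFs and clone A2 was not tested.

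Reads on the strand opposite to *Il1rl1*, which only the alternative with unstranded counts used, averaged 0.618 CPM after IL-1β against 0.272 CPM untreated in wild-type MEFs, 1.78 against 0.828 CPM in Lkb1-/- MEFs, 2.13 against 0.803 CPM in clone A1 and 0.5 against 0.169 CPM in clone A2. They made up 0.123% of both strands in untreated and 0.129% in treated wild-type MEFs, 0.122% and 0.121% in Lkb1-/- MEFs, 0.104% and 0.158% in clone A1 and 0.152% and 0.13% in clone A2. Reads opposite to *Il7* averaged 0.21 against 0.095 CPM in wild-type MEFs, 1.55 against 0.448 CPM in Lkb1-/- MEFs, 1.33 against 0.356 CPM in clone A1 and 2.27 against 0.528 CPM in clone A2.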

How the results depend on the processing

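No call changed direction under the alternatives run. Of the 50 fitted member differences recomputed under each alternative, 3, none of them called, changed sign when libraries were left out, untreated *Il33* and *Tslp* in A1 against Lkb1-/- (up to 0.76 and 0.12) and untreated *Il15* in Lkb1-/- against wild-type (up to 0.24). The numbers of genes called for IL-1β in wild-type, Lkb1-/-, A1 and A2 were 396, 831, 348 and 995. Without a filter they were 954, 1428, 908 and 1643, and with the replicate number as a block 1629, 2601, 1684 and 3133. DESeq2 gave 624 in wild-type and 573 in A1, and the fit of only the groups compared 246 in A2. For the response in Lkb1-/- minus wild-type (43 genes) the counts were 76 with upper quartile scaling, 347 without a filter, 311 with the block, 70 in the fit of those groups and 121 in DESeq2. For A1 minus Lkb1-/- (5 genes) they were 3 with unstranded counts, 3 with upper quartile scaling, 141 without a filter, 36 with the block and 12 in DESeq2. For A2 minus Lkb1-/- (0 genes) they were 1 with upper quartile scaling, 68 without a filter, 18 with the block and 12 in DESeq2. The number of members called for IL-1β in A2 (1) was 2 without a filter, with the newer method and in DESeq2, and 3 with the block. In Lkb1-/- MEFs (2) it was 4 with the block, and in wild-type MEFs (2) and A1 (2) it was 1 in the fit of the groups compared. For the Lkb1-/- minus wild-type response (1, *Il7*) it was 0 with unstranded counts, the newer method and the fit of those groups, and for A2 minus Lkb1-/- (0) it was 1 without a filter. With unstranded counts the untreated *Il7* difference was 4.21. Without all 8 first libraries, which was chosen after seeing the data, the counts for IL-1β were 921, 1534, 899 and 2556 genes and for the differences of responses 147, 10 and 6. Members called were then 2 in treated A1 against Lkb1-/- and 3 for IL-1β in A2. The log2 values were 3.41 (*Tslp*, treated Lkb1-/- against wild-type), 0.76 (*Il33*, untreated A1), -2.85 (*Il1rl1*, untreated A2), 1.45 (*Il7*, IL-1β in wild-type), 1.13 (*Tslp*, IL-1β in A1) and -1.66 (*Il7*, Lkb1-/- minus wild-type response). The causes were not tested. The block ended or added no other call of a member than those given above.

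Leaving out 1 library gave 203 to 412, 544 to 763, 197 to 233 and 679 to 1890 genes for IL-1β in the 4 genotypes, and 23 to 57, 0 to 4 and 0 to 1 for the differences of responses. Members called for IL-1β were 1 to 2 in wild-type, A1 and A2, 2 to 3 in Lkb1-/- MEFs, 0 to 1 for the Lkb1-/- minus wild-type response, 2 to 4 for treated A1 and 3 to 4 for treated A2 against Lkb1-/-, with no change in the other comparisons. The log2 values ranged from 0.89 to 1.36 (*Il7*, IL-1β in wild-type), -1.49 to -1.01 (*Il7*, Lkb1-/- minus wild-type response), 3.52 to 4.70 (*Tslp*) and -2.16 to -1.19 (*Il15*) in treated Lkb1-/- against wild-type, -0.46 to 0.52 (*Il33*, untreated A1 against Lkb1-/-), -2.91 to -2.40 (*Il1rl1*, untreated A2), 1.88 to 2.82 (*Il33*, IL-1β in Lkb1-/-), 0.49 to 1.00 (*Il1rl1*, A2 minus Lkb1-/- response), 0.32 to 0.95 (*Tslp*, treated A1), 1.14 to 1.77 (*Tslp*, IL-1β in A1), 0.28 to 1.47 (*Il15*, IL-1β in wild-type) and 1.60 to 2.12 (*Il1rl1*, IL-1β in A2). *Il33* counts in wild-type MEFs and clone A2 were 0 to 4 per library, which limits what can be seen there.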
